A study of Mus musculus with 21 samples.

Results

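Uptake of 4-thiouracil into newly made RNA was examined in 11 hearts with an intact Lmna gene, out of 21 hearts in the series. Of the 11 mice, 8 carried a Uprt transgene (written Uprt Tg/0; 4 females and 4 males) and 3 did not (all 3 male); all 11 were Lmna +/+ and carried Myh6MCM Tg/0. The other 10 mice were Lmna F/F in the labels' notation, 6 with Uprt and 4 without, and all of them carried Myh6MCM Tg/0. The libraries were chosen by genotype alone, and the genotype written in the deposited table matched the labels in 21 of 21 libraries.

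Every mouse, with or without Uprt, received the same treatments. Tamoxifen was injected on 4 consecutive days at 6 to 8 weeks of age, 4-thiouracil (named so in the labels, which abbreviate it 4sU) followed 2 weeks later at a labelled dose of 10 mg per g of body weight, and hearts were taken 6 h after that. RNA from the free wall of the left ventricle (1.5 µg per heart) was treated with 12 mM iodoacetamide and sequenced from its 3′ ends in single reads of 100 bases. Myh6MCM drives a tamoxifen-activated Cre recombinase from a cardiomyocyte promoter, so the controls carried Cre and tamoxifen as well. The labels give neither the promoter of the Uprt transgene nor the cells that expressed it.

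Uprt is a uracil phosphoribosyltransferase, a pyrimidine salvage enzyme that turns 4-thiouracil into a thiolated nucleotide which RNA polymerases then build into new transcripts. Mammalian cells use free uracil poorly, so cells with the transgene are the ones expected to be labelled. Iodoacetamide alkylates the thiolated uridines, and reverse transcriptase then reads them as C, so a read from new RNA carries T>C changes. Sequencing errors, sequence variants and RNA modifications can also give T>C changes, and the mice without Uprt give the T>C level without the transgene under the same drug and chemistry. Whether that level includes label taken up without Uprt was not tested.

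The unit of measurement was the interval, a 3′ stretch of an annotated transcript on mm39. Of 208307 deposited intervals, 121259 remained after overlapping intervals on a strand were reduced to the most read one. The 2 measures were the T>C share, which is reads with a T>C change per 100 reads, and the conversion rate, which is T>C changes per 100 sequenced T positions. The 11 libraries held 25975911 to 51007428 reads over the kept intervals, of which 26.3% to 33.5% lay on mitochondrial RNA. The deposited transcript IDs were not paired with gene names in the tables used here, so nuclear transcripts are given by position, and heart marker genes could not be looked up. The 16 mitochondrial intervals have the exact start and end of mitochondrial rRNA and tRNA genes and are named.

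Across all nuclear RNA, T>C reads were 1.59 times as frequent in hearts with Uprt. The share was 5.02% ± 0.452 (SD, n = 8) with Uprt and 3.16% ± 0.420 (SD, n = 3) without. The 8 mice with Uprt ran from 4.54% to 5.96% with a median of 4.9996%, while the 3 mice without it had 2.68%, 3.49% and 3.30%, so the groups did not overlap. The conversion rate per 100 T was 0.259 ± 0.0258 (SD, n = 8) against 0.159 ± 0.0227 (SD, n = 3), again with no overlap. For both measures the two-sided exact permutation p was 0.0121, the smallest that 8 against 3 libraries can give, and 0.0162 after Benjamini-Hochberg adjustment over the 4 library comparisons made. These permutations do not account for sex, and all 3 mice without Uprt were male. The 4 males with Uprt against the 3 males without had a nuclear share 1.60 percentage points higher and a nuclear rate 0.0873 higher, and both had p = 0.0571 by exact permutation, as low as 7 males allow. In counts per 1000000 reads, 35129 nuclear T>C reads were found with Uprt and 22995 without. Nothing in the labels says more than that the samples are separate mice of one sequencing pool, and p-values measure the spread between these mice.

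Mitochondrial RNA taken as a whole gave another picture. Its T>C share was 4.69% ± 0.719 (SD, n = 8) with Uprt and 4.69% ± 0.493 (SD, n = 3) without, with an exact permutation p of 0.982. Its conversion rate per 100 T was 0.0682 ± 0.00620 (SD, n = 8) against 0.0527 ± 0.00304 (SD, n = 3), a difference of 0.0155 with no overlap and an exact permutation p of 0.0121 (adjusted 0.0162). Among males alone the difference in rate was 0.0162, with an exact permutation p of 0.0571.

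**Figure D1:**
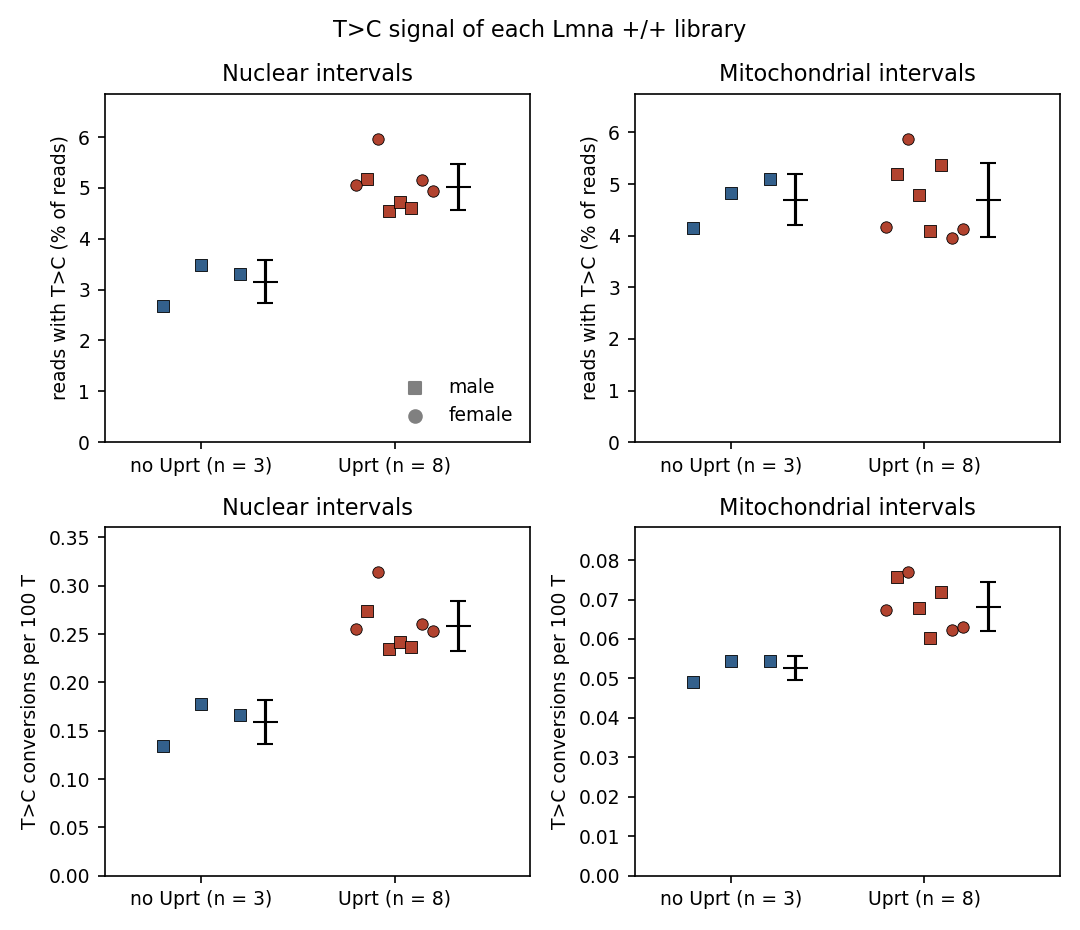
T>C signal of each Lmna +/+ library: the percent of reads with a T>C change (top) and T>C conversions per 100 T positions (bottom), for nuclear (left) and mitochondrial (right) intervals; squares are males, circles females, and the bars show mean ± SD of 3 mice without and 8 mice with Uprt. The groups separate in 3 of the 4 panels and overlap for the mitochondrial T>C share.

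The rise was spread over most of the transcriptome that could be tested. An interval was tested when each of the 11 libraries had at least 50 reads on it, which left 11942. The mean share was higher with Uprt at 10891 of them (91.2%). The median interval had a share of 6.14% with Uprt and 2.48% without, and its log2 odds ratio, the log2 ratio of the odds that a read carries T>C, was 1.08 (quartiles 0.45 and 1.81). In edgeR's quasi-likelihood test with sex as a term, 3113 intervals rose at an adjusted p under 0.05. They are 26.1% of those tested, and 9 fell (0.0754%). As no female lacked Uprt, each odds ratio of this fit sets the 4 males with Uprt against the 3 males without. The females with Uprt enter the spread and the mean shares, but not the ratio. The same holds for the Lmna +/+ log2 odds ratios given below from fits with the sex term. The intervals that rose had a median share of 7.83% with Uprt and 1.91% without, and a median log2 odds ratio of 1.91. At 3253 intervals (27.2%) all 8 mice with Uprt stood above all 3 without, and at 8 (0.067%) all 8 stood below. The count of rises rested in part on single mice: leaving out the first mouse without Uprt, which had the lowest background, left 1677 rises, and leaving out the second mouse with Uprt left 2013. Because all mice without Uprt were male, leaving the sex term out gave 4792 rises, and the 4 males with Uprt against the 3 males without gave 2270.

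The conversion rate gave much the same list. By that measure 3353 of 11926 intervals rose (28.1%) and 10 fell (0.0839%), and the median over all tested was a log2 odds ratio of 1.11. Both measures called 2940 intervals higher, 94.4% of those called by share and 87.7% of those called by rate. Without the first mouse lacking Uprt, 1969 intervals rose by rate.

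**Figure D2:**
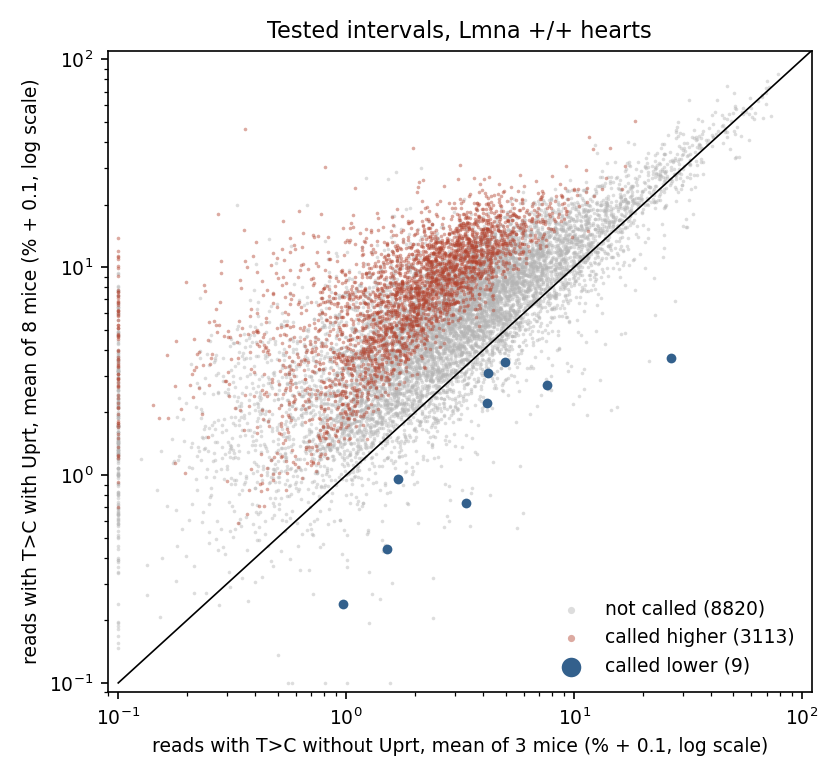
Mean T>C share of each tested interval with Uprt (8 mice, vertical) against without (3 mice, horizontal), both in percent plus 0.1 on log scales; red points were called higher (3113), blue points lower (9) and grey points neither (8820), and the line marks equal shares. Most points lie above the line, and called rises thin out where the share without Uprt is high.

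Read abundance itself hardly differed between the 2 groups. Of 27444 intervals tested for all reads, 16 were higher (0.0583%) and 4 lower (0.0146%) with Uprt by edgeR. This count was unstable: it was 1 in all without the sex term, 181 with DESeq2, 373 with no filter on low counts, and between 0 and 80 when single mice were left out. The 0 came without the first mouse lacking Uprt and without the fourth mouse with it, and the 80 without the fifth mouse with it; it was 4 and 9 without the sixth and seventh mouse with Uprt and 7 without the second mouse lacking it. The intervals whose T>C share rose had a median log2 fold change in all reads of -0.0049, beside -0.0057 for all intervals tested for share, and 4 of the 3113 were called in all reads.

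The transcripts that were most clearly labelled in all 8 mice are shown by the gap between the lowest mouse with Uprt and the highest without. Among the 1976 nuclear intervals that rose, had at least 200 reads in each library and lay under 5% in each mouse without Uprt, the 12 with the widest gap were taken. This list was chosen after the values were seen, so its separation is a description. In these 12 intervals the lowest mouse with Uprt was between 10.7% and 17.0%, and the highest without Uprt between 2.55% and 4.97%.

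The widest gap was at transcript ENSMUST00000069799.3 (chr1:82210822-82215325, minus strand, 4504 bases). Its share with Uprt ran from 15.97% to 23.0% with a median of 21.4%, and the 3 mice without Uprt had 1.39%, 2.87% and 1.88%. The log2 odds ratio was 3.75 ± 0.38 (SE), with an edgeR adjusted p of 0.000194. All 8 labelled mice were close together here and far from the 3 others.

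Transcript ENSMUST00000022986.8 (chr15:58039275-58044861, minus strand, 5587 bases) had the smallest adjusted p of the 12, 4.05e-05 by edgeR. It was also their most read, at 225 counts per 1000000 reads (CPM), with at least 4540 reads in each of the 11 libraries. Its share with Uprt ran from 13.96% to 20.7% with a median of 17.0%, against 2.73%, 2.75% and 3.64% without, a log2 odds ratio of 2.74 ± 0.23 (SE).

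Other intervals of the list behaved alike. At chr11:65067387-65069270 the share was 17.0% to 23.8% with Uprt and 4.64%, 3.65% and 4.36% without. At chr6:97995137-97998310 it was 15.7% to 23.4% with Uprt and 1.43%, 4.26% and 4.15% without. The labelled mice differed most from each other at chr10:40163454-40165324, where they ran from 13.3% to 27.9% and the mice without Uprt had 2.10%, 2.55% and 2.53%. The remaining 7 were chr14:4431611-4436029, chr12:111078350-111082335, chr12:76984043-76985341, chr11:31881533-31885634, chr5:5555015-5557690, chr15:98935891-98935991 and chr13:8853004-8855850. Their log2 odds ratios lay between 2.26 and 3.50.

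The 12 intervals differed widely in length, up to 5587 bases, with a median of 3010.5 bases, beside 1239 bases for the 1976 they were taken from and 951.5 for all nuclear intervals tested. Their reads covered a median of 29.3 T positions, beside 24.2 and 23.0; T positions per read enter the share by which the list was chosen. Their abundance, which the minimum of 200 reads bounds from below, was between 11.8 and 225 CPM, and their fold changes in all reads ran from -0.34 to 0.81 on the log2 scale. In the Lmna F/F hearts, which are other mice, all 12 were called higher as well. There 40.7% of 13307 tested intervals rose (5417) and 19 fell (0.143%). Of the intervals called higher in Lmna +/+, from which the 12 were picked, 79.9% were called higher there. The mean share of the 12 in the Lmna F/F hearts was 11.9% to 21.5% with Uprt and 2.48% to 4.75% without.

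Ranking by the rise of the mean share gave a different set, and 11 of its 12 intervals split the labelled mice into a high and a low class. The same filters were used for this ranking. At chr8:84972867-84973181 the first 2 mice with Uprt had shares of 2.93% and 2.81% and the other 6 had 46.2% to 52.1%, while the 3 mice without had 1.80%, 1.16% and 2.63%. At chr8:65045576-65046156 the same 2 mice had 1.74% and 1.89% and the other 6 had 28.6% to 33.5%, with 1.35%, 0.940% and 0.676% without Uprt. In the Lmna F/F hearts, one mouse with Uprt was also low at both intervals (2.86% and 1.07%), and the other 5 had 48.3% to 50.5% and 29.9% to 36.5%. The 4 Lmna F/F mice without Uprt stayed at 1.20% to 1.88% and 0.714% to 1.22%.

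At other intervals of this ranking mice without Uprt were high too. At chr8:95580778-95581523 the mice with Uprt had either 2.79% to 4.27% (4 mice) or 44.4% to 45.5% (4 mice), the 3 Lmna +/+ mice without Uprt had 1.73%, 2.15% and 2.03%, and 3 of the 4 Lmna F/F mice without Uprt had 44.3%, 44.5% and 47.3%. In all, 6 of the 12 intervals reached 20% in at least 1 Lmna F/F mouse without Uprt. In the Lmna F/F comparison 5 of the 12 were called higher, beside 40.7% of all tested intervals and 79.9% of those called higher in Lmna +/+. In the Lmna +/+ comparison itself, 4 of the 12 lost their call in 3 to 8 of the alternatives run, among them leaving out the first mouse without Uprt. A C allele at a reference T gives T>C reads in every read that covers it; variant calls were not used here, and the part of sequence variants was not tested. A spread of this kind, with the highest labelled mouse at 20% or more and over 4 times the lowest, was found at 980 of the 11942 tested intervals (8.21%) and at 158 of the 3113 called higher (5.08%). Without the intervals that reached 20% in any of the 7 mice lacking Uprt, a setting added after the data were seen, 3219 rose. This setting keeps intervals that split only the mice with Uprt, such as the one from chr8:84972867, so its count does not bear on those.

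**Figure D3:**
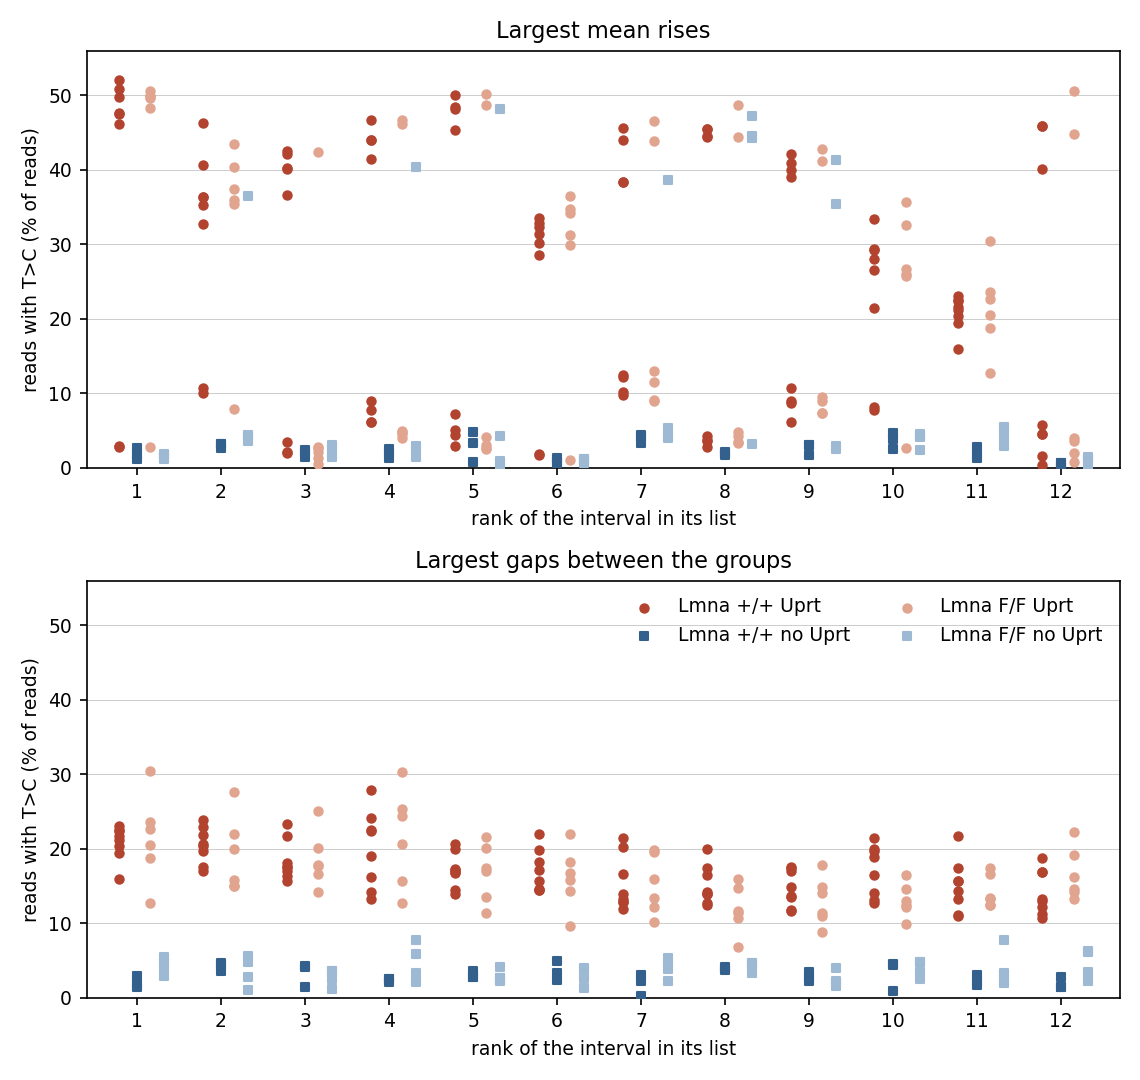
T>C share of each library, in percent of reads, at the 12 nuclear intervals with the largest mean rise (top) and the 12 with the widest gap between groups (bottom), by rank; dark red and dark blue are Lmna +/+ mice with and without Uprt, pale red and pale blue Lmna F/F mice. At the top single mice fall into a high and a low class except at rank 11, the same interval as rank 1 of the lower panel; in the lower panel all Lmna +/+ mice with Uprt lie at or above 10.7%.

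The level of label was lower at the more abundant transcripts. Over nuclear intervals, leaving out 514 that reached 20% in a Lmna +/+ mouse without Uprt, the median conversion rate per 100 T was 0.311 with Uprt and 0.0975 without below 5 CPM (2622 intervals). Between 30 and 100 CPM it was 0.228 and 0.0921 (1892 intervals), and between 300 and 1000 CPM 0.111 and 0.0581 (195 intervals). The median rise was 0.185 in the first class and 0.0409 in the last of these. The share of intervals called higher went the other way, from 9.61% below 5 CPM to 49.2% between 300 and 1000 CPM, with more reads behind each value. In the Lmna F/F hearts the median rise went from 0.179 to 0.0468 over the same classes.

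**Figure D4:**
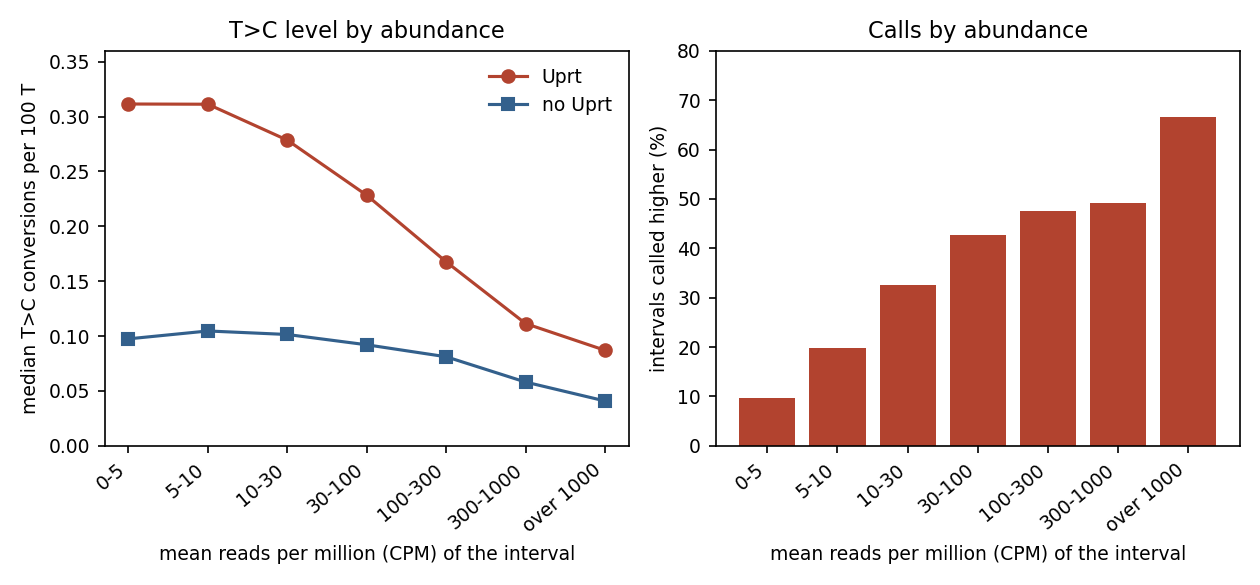
Median T>C conversions per 100 T positions with (red) and without (blue) Uprt (left) and the percent of intervals called higher (right), for nuclear intervals grouped by mean CPM; the last class holds 66 intervals. The labelled level falls from 0.311 to 0.0870 as abundance rises, while the percent called rises from 9.61 to 66.7.

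The most read intervals held a smaller part of the excess of T>C reads with Uprt than of all reads. This excess is the plain difference between the groups over all nuclear intervals, called or not. It includes intervals that split the labelled mice, such as the one from chr1:135779811 among the most read, so not all of it need be label. The 10 most read nuclear intervals took 27.9% of nuclear reads but 9.70% of the excess, and the 100 most read took 46.6% and 21.4%. The 1000 most read took 72.7% of reads and 48.8% of the excess.

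Longer 3′ intervals had a larger median rise at like abundance, and a higher median rate without Uprt as well. Among intervals of 5 to 30 CPM, the median rise in conversion rate was 0.118 for those under 300 bases (1245 intervals). It was 0.229 for those of 3000 bases or more (1006 intervals). The median rates of these classes were 0.0721 and 0.124 without Uprt, and 0.216 and 0.381 with it. Their median log2 odds ratios by share were 1.103 and 1.365. At 30 to 100 CPM the median rise was 0.0608 and 0.174. The rates there were 0.0595 and 0.119 without Uprt, and 0.132 and 0.324 with it. The log2 odds ratios there were 0.776 and 1.077. As a description over 11409 intervals, which share libraries and differ in depth, Spearman's rho of the rise in rate was 0.229 with log2 length, -0.188 with log2 CPM and 0.183 with the percent of T in the interval. The rise in share, which also counts how many T positions a read offers, had a rho of 0.380 with T positions per read over 11414 intervals.

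Of the 12 most read nuclear intervals, 7 rose, where 26.1% of all tested intervals and 66.7% of those over 1000 CPM did. By log2 odds ratio, the largest of these rises was at chr4:130209019-130209256 (5747 CPM), at 1.14 ± 0.18 (SE) with an edgeR adjusted p of 0.00108. Its shares were 1.90% to 3.19% with Uprt and 0.935%, 1.17% and 1.32% without. At chr15:76899687-76900125 (14344 CPM) the share was 1.03% to 1.64% with Uprt and 0.598%, 0.637% and 0.668% without, a log2 odds ratio of 0.87 ± 0.11 (SE). At chr10:53220119-53222083 (5294 CPM) the shares were 5.57% to 10.3% with Uprt and 3.07%, 4.13% and 4.03% without. The rises at chr9:110598483-110598862, chr5:122244734-122244917, chr7:4521304-4521366 and chr7:127804607-127804900 were 0.39, 0.58, 0.92 and 0.57 on the log2 odds scale. The first of these lost its call with DESeq2 (adjusted p = 0.0547) and with limma (adjusted p = 0.0597).

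The other 5 did not pass the test, though 3 of them did under some alternatives. The most read nuclear interval of all, chr17:40157244-40159092 (1849 bases, 110900 CPM), had 3.77% to 4.23% with Uprt and 3.93%, 3.59% and 3.56% without, and its groups overlapped (log2 odds ratio 0.11 ± 0.06, SE). Shares at chr9:66935174-66935445 were 4.28% to 6.67% with Uprt and 4.54%, 5.66% and 5.30% without, and chr2:113877763-113877946 had a log2 odds ratio of 0.18 and was called without the sex term (edgeR adjusted p = 0.0457). At chr14:30933495-30933686 all 8 labelled mice, at 1.88% to 2.67%, stood above the 3 others at 1.72%, 1.68% and 1.58%, with an edgeR adjusted p of 0.0759. That interval was called without the sex term (adjusted p = 0.0173) and with all 21 libraries in the fit (adjusted p = 0.0153). At chr1:135779811-135779998 the labelled mice split once more, with 4 at 11.995% to 13.02% and 4 at 1.11% to 1.86%. One Lmna F/F mouse without Uprt had 13.3% there. It was called without the sex term (edgeR adjusted p = 0.0258) and without the fourth or the fifth mouse with Uprt (adjusted p = 0.0422 and 0.0409).

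Some well-read intervals differed little in T>C share between males with and without Uprt. The 6 intervals with at least 1000 reads in each library and the smallest fitted difference had log2 odds ratios within 0.01 of 0. Their standard errors were 0.24 to 0.32. These ratios set males against males, so the shares of the females with Uprt did not enter the ranking. At chr7:28592673-28593653 the shares were 9.09% to 13.9% with Uprt and 10.1%, 12.1% and 11.4% without. At chr11:54869934-54870287 they were 6.60% to 9.69% and 6.46%, 8.93% and 8.63%. By conversion rate none of the 6 was called either. The rates at one of them, chr13:75793015-75793290, still lay apart in their means, at 0.0670 ± 0.0389 (SD, n = 8) per 100 T with Uprt and 0.0341, 0.0279 and 0.0316 without, with an edgeR adjusted p of 0.278. Over all nuclear intervals, the percent called higher was 34.3 where the mean share without Uprt was 1% to 2% and 10.6 where it was 5% to 10%. It was 0 of 283 intervals where that share was 20% or more. The share without Uprt is also part of the tested odds ratio. The median rise in share was 2.61, 3.68 and 2.05 percentage points in these classes.

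The groups overlapped at 8 of the 9 intervals that fell, and 1 of the 9 reached 20% in a Lmna +/+ mouse without Uprt. The 4 most negative had few T>C reads, with 10, 3, 20 and 29 over all 8 labelled mice together. The most negative log2 odds ratio was at chr4:155735112-155735165, where 5 of 8 labelled mice had no T>C read and the others reached 2.27%, against 2.63%, 6.09% and 1.08% without Uprt. With 3 reads as the limit, a count of 0 allows a share of 1.48% to 2.14% in those 5 libraries. At chr6:48546875-48546885, an interval of 11 bases, 7 of 8 labelled mice had no T>C read, which allows up to 1.39%, and the mice without Uprt had 1.01%, 0.741% and 0.842%. All 4 labelled males were among those with no T>C read at both intervals, so the fitted ratios, which set males against males, give no size. The call at the first was lost without the sex term (edgeR adjusted p = 0.0939) and without the second mouse lacking Uprt (adjusted p = 0.0572). The call at the second was lost with any of 7 single mice left out, at adjusted p from 0.0550 to 0.0798: mouse 2, 4, 5 or 6 with Uprt, or any of the 3 without. The next 2 most negative, chr3:63287754 and chr4:115481922 by their starts, lost theirs in 7 and 8 alternatives, among them the fit without the sex term (adjusted p = 0.323 and 0.344). Of the 9, 1 was called lower and 1 higher in the Lmna F/F comparison, and 4 had a log2 odds ratio above 0 there.

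Among the mitochondrial intervals, 14 were deep enough and 9 rose by share, beside 26.1% of all intervals. Calls depend on depth: 42.7% of nuclear intervals at 30 to 100 CPM and 66.7% of those over 1000 CPM rose. Mitochondrial RNAs are cut from long transcripts of the mitochondrial genome, in which tRNAs punctuate the rRNAs and mRNAs. Both ribosomal RNAs rose: mt-Rnr1, the small-subunit rRNA, had 0.905% to 1.33% with Uprt and 0.627%, 0.659% and 0.716% without (log2 odds ratio 0.80 ± 0.12, SE), and mt-Rnr2, the large-subunit rRNA, had 1.25% to 1.52% against 1.06%, 1.16% and 1.16% (0.32 ± 0.07, SE). The groups did not overlap at either. DESeq2 called neither (adjusted p = 0.730 and 0.895), and limma did not call mt-Rnr2 (adjusted p = 0.171).

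By log2 odds ratio, the intervals at tRNA genes rose furthest at TrnH, which lies after ND4. Its share was 5.37% to 11.1% with Uprt and 2.02%, 2.44% and 2.59% without, a log2 odds ratio of 1.83 ± 0.29 (SE). At TrnT, after CYTB, the shares were 6.06% to 11.7% with Uprt and 2.48%, 2.87% and 3.32% without (1.81 ± 0.28, SE). TrnS2, TrnK and TrnM had log2 odds ratios of 1.62, 1.16 and 1.14, and TrnI and TrnL1 0.45 and 0.42. The call at TrnL1 was lost in each of 15 alternatives, with adjusted p from 0.0512 to 0.157. TrnI lost its call with limma (adjusted p = 0.0680), and TrnS2 without the first mouse lacking Uprt (edgeR adjusted p = 0.0826).

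Other tRNA intervals had a high share of T>C reads in every mouse. TrnW, after ND2, had 25.9% to 28.8% with Uprt and 26.3%, 27.9% and 28.7% without. TrnG, after COX3, had 19.6% to 22.8% against 18.004%, 20.8% and 20.4%, and TrnD, after COX1, 10.9% to 12.8% against 9.75%, 11.3% and 10.9%. None of these 3 passed the test by share. The reads counted at TrnG covered on average 0.00927 T positions per read inside the interval and those at TrnD 0.0177, so their T>C changes lay almost all outside the tRNA. A T>C read is counted wherever in the read the change lies, and a conversion only inside the interval. Per T position inside the interval, TrnW had a rate of 0.466 ± 0.104 (SD, n = 8) with Uprt and 0.177 ± 0.0417 (SD, n = 3) without, with an edgeR adjusted p of 0.0212, on 0.102 T positions per read.

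TrnV, between the rRNAs, had 13.1% to 38.7% with Uprt and 26.3%, 29.2% and 18.2% without. TrnR had 3.54% to 10.7% against 0.984%, 4.62% and 3.17%, with an edgeR adjusted p of 0.0583. TrnR was called higher in 6 alternatives: without the sex term (adjusted p = 0.0327), with a minimum of 200 reads (0.0438), with DESeq2 (0.0347), with limma (0.0361), without the fourth mouse with Uprt (0.0286) and without the second mouse lacking it (0.0394). The groups overlapped at both TrnV and TrnR. TrnW, TrnG, TrnD and TrnI held 4848, 17066, 22264 and 22765 CPM, beside 91.8 CPM for TrnH. As the median over the well-read mitochondrial intervals in place of the sum over reads, the share was 5.85 percentage points higher with Uprt, with an exact permutation p of 0.0121.

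**Figure D5:**
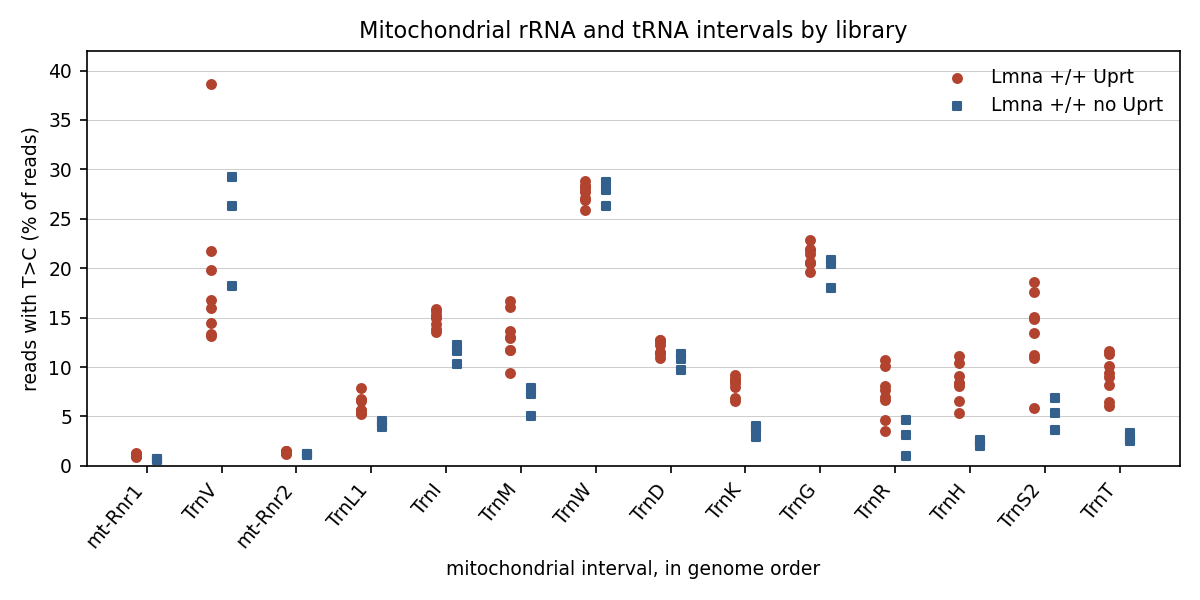
T>C share, in percent of reads, of each Lmna +/+ library at the 14 tested mitochondrial intervals in genome order; red circles are 8 mice with and blue squares 3 mice without Uprt. The groups separate at TrnH, TrnT, TrnK and TrnM and overlap at TrnW, where every mouse lies between 25.9% and 28.8%.

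The percent of intervals that rose was alike across the autosomes and lower on the X. Between 22.3% and 31.6% of the tested intervals of each autosome rose, and on the X chromosome 62 of 379 did (16.4%). The X was below every autosome with males alone as well, at 11.1% beside 18.6% of all intervals, and in the Lmna F/F hearts, at 34.1% beside 40.7%. The fit with males alone repeats the contrast that the odds ratios of the main fit already make, so it is not a separate result. The median rise in conversion rate on the X was 0.112, beside 0.148 for all tested intervals. By share, the median log2 odds ratio was 0.916 on the X and ran from 0.979 to 1.21 over the autosomes. Calls depend on depth, which was not compared between chromosomes. No test of the X against the autosomes was made.

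Labelling varied among the mice with Uprt. Females had a nuclear T>C share of 5.28% ± 0.463 (SD, n = 4) and males 4.76% ± 0.284 (SD, n = 4), with an exact permutation p of 0.114 where the smallest possible is 0.0286. No interval of 12014 passed the edgeR test between females and males, 1121 had an unadjusted p under 0.05, and limma also called 0. At 65.2% of these intervals the odds were higher in females. Over the median interval the 8 mice with Uprt ran from 4.37% to 7.25%, and the mice without had 1.76%, 2.50% and 2.74%.

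The pattern in Lmna-intact hearts recurred in the Lmna F/F hearts. Of the intervals that rose in Lmna +/+, 3097 could be tested there, 2473 (79.9%) were called higher and 98.9% had a log2 odds ratio above 0. Among the 11718 intervals tested in both, 44.4% were called higher in Lmna F/F. The 2473 are 47.5% of the intervals called higher in Lmna F/F and tested in both. Across 11409 intervals the rises in conversion rate had a Spearman's rho of 0.703, as a description; the mice differ, while the intervals share length, base composition and depth. In the test of the difference itself, the Uprt by Lmna interaction, 0 of 11726 intervals passed by edgeR and 654 had an unadjusted p under 0.05; 4 passed when the first Lmna +/+ mouse without Uprt was left out.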

How the data were processed

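Hearts of 21 mice were profiled by 3′ end sequencing after metabolic labelling; the 11 Lmna +/+ libraries carry this account. Per the file headers, the authors deposited 1 table in the column layout of SlamDunk with read counts, T>C read counts, T coverage and conversion counts per interval and library, none normalized. The deposited conversion rate is a fraction that equals conversions over T coverage, and the deposited CPM column, kept as a score because overlapping intervals count some reads more than once, was not used. Coordinates are on mm39, as named in the submitters' processing notes; no label or header gives aligner settings, annotation release or a variant filter.

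From these counts, overlapping intervals on one strand were reduced to the most read, CPM was recomputed over kept intervals, and intervals with at least 50 reads in each library were tested. Converted and unconverted reads of each library entered edgeR 4.0.16 (R 4.3.3; glmQLFit, glmQLFTest) as a pair of columns with an effect for each library, sex and Uprt; all reads were tested with filterByExpr and TMM. Adjusted p under 0.05 (Benjamini-Hochberg over all intervals tested) was the threshold. limma 3.58.1 (0.5 added to both counts) and DESeq2 1.42.0 were alternatives. Library values were compared by exact permutation. The fits were tested on simulated data.

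Intervals were named by rule: the 12 largest rises in mean share (at least 200 reads in each library, under 5% without Uprt), the 12 most read, the 4 most negative, the 6 smallest differences with at least 1000 reads, and all mitochondrial ones; the list of widest gaps was added. The comparison, members and lists were chosen with earlier results of these data known. None of the deposited transcript IDs matched the gene table used (0 matched), so gene lists for heart functions and cell type markers could not be run, and no sequence is shown. Read counts carry no molecular identifiers, so limits for counts of 0 cover counting error only. Depth was 25975911 to 51007428 reads per library.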

Additional observations from a re-analysis of the deposited data

Results flagged for a closer look

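In each group of 4 to 10 mice the highest and lowest library was checked for standing apart from the others; 5 of 64 groups did, and chance gives about 1 in 20. The third Lmna +/+ mouse with Uprt, a female, had a nuclear T>C share of 5.96%, and the next highest had 5.17%. At chr9:66935174-66935445, among the most read intervals, the highest labelled mouse had 6.67% and the next 5.21%. At chr6:48546875-48546885 one labelled mouse had 1.11% and the other 7 had 0. At chr3:63287754-63293451, called lower, the highest had 3.96% and the next 1.41%. At TrnV the highest had 38.7% and the next 21.7%.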

How the results depend on the processing

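No paired analysis was possible because the labels give the mice no replicate numbers that are shared between groups. The count of changed T>C shares, 3122 in all, was 4802 without the sex term and 1688 to 2997 with single mice left out; under the other alternatives it was 2274 to 4384. The count by conversion rate, 3363, was 1979 to 3290 with single mice left out. The 20 calls in all reads became 1 without the sex term, 181 with DESeq2, 373 with no filter on low counts and 0 to 80 with single mice left out. With single mice left out, the interaction gave 0 to 4 calls, female against male 0 to 2, and the Lmna F/F comparison 4310 to 5420 beside 5436; the last was 5608 without the sex term and 4480 with a minimum of 200 reads. With males alone (4 against 3) the nuclear share rose by 1.60 percentage points, the nuclear rate by 0.0873 and the mitochondrial rate by 0.0162 per 100 T, each at p = 0.0571 by exact permutation, as low as the design allows. With single mice left out these were 1.62 to 2.02, 0.0867 to 0.109 and 0.0137 to 0.0166, and the mitochondrial share, 5.85 higher by the median over intervals, moved between -0.27 and 0.21 by sum. TrnW, with a log2 odds ratio of 0.0072, changed sign to -0.00026 without the sex term, and ran from -0.040 (without the first mouse lacking Uprt) to 0.046 with single mice left out, with -0.0076 without the sixth mouse with Uprt; the cause was not tested. The 12 intervals with the widest gaps kept direction and call in all 276 recomputed values. They were picked among called intervals for their separation in these same libraries, so this stability is no separate test of them. Of the nuclear intervals below 5 CPM, with the fewest reads, 9.61% were called.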
